A study of Mus musculus with 32 samples.

Results

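Gastrocnemius muscle of mice with a complete spinal cord injury that received boldine was compared between day 28 and day 7 after surgery. The comparison rests on 12 of the 32 libraries of the series, chosen by their labels for time, surgery and treatment, with 6 muscles taken at day 28 and 6 other muscles taken at day 7. All 12 mice were young males, all had the injury, and all received boldine, so the days differ in time since surgery, in age by the same span and in length of treatment. Set beside them were 6 injured vehicle-treated muscles at day 28 and 6 at day 7. Also set beside them were 4 sham-operated muscles at day 28 and 4 at day 7, likewise vehicle-treated. The labels give neither the dose nor the route of boldine, and the numbers of the replicates pair no animals. RNA of each muscle, from a piece that held the medial and the lateral head in equal parts, was sequenced as bulk tissue, and the deposited values were raw counts per gene.

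A complete spinal cord injury cuts the descending drive to the leg, which paralyses and unloads the muscle while most motor neurons below the injury keep their axons. Paralysed muscle loses mass through the ubiquitin-proteasome and autophagy systems, in which the ligases MuRF1 and atrogin-1 tag muscle proteins, and it shifts over time towards fast, glycolytic fibres. Nerve activity normally restricts acetylcholine receptors to the synapse, and muscle that loses this activity makes receptor subunits along the whole fibre again. Boldine, an alkaloid of the boldo tree, is known to block connexin and pannexin hemichannels, membrane pores that open in damaged or denervated fibres.

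Total counts lay between 10928810 and 12886336 in the day 28 libraries and between 11402294 and 12885290 in the day 7 libraries. The 10 most counted genes held 27.5% to 29.2% of the counts at day 28 and 15.3% to 21.6% at day 7. Scaling with edgeR's TMM factors, which sets the bulk of genes to a common level, gave factors of 0.824 to 0.901 at day 28 and 1.123 to 1.359 at day 7. Each direction below is therefore relative to the bulk of genes. Levels are in CPM, counts scaled to a common library size after TMM. Fold changes are log2 of day 28 over day 7 ± SE, with n = 6 in each group, from edgeR's quasi-likelihood test on all 32 libraries. A gene rose or fell where its p-value, adjusted over all 14955 genes tested by the method of Benjamini and Hochberg, was under 0.05. The muscle identity list was high in every library, with a summed level of 180000 to 209000 CPM at day 28 and 62500 to 106000 CPM at day 7. All 12 libraries stood in the set with high Hipk2, at 63.9 to 86.2 CPM at day 28 and 49.8 to 94.3 CPM at day 7. The 28-day sham libraries and 4 of the 6 vehicle libraries at day 28 stood in a set with low Hipk2. The labels do not account for this set, which touches the comparisons with those groups. It also enters the test of day 28 against day 7 through the gene-wise spread, which was estimated from all 32 libraries. Fitted on the 12 SCI boldine libraries only, that test called 6198 genes, 5906 of them among the 6440 of the main fit.

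Day 28 and day 7 muscles were far apart. Of the 14955 genes tested, 6440 (43.1%) differed, 3212 (21.5%) higher and 3228 (21.6%) lower at day 28. More than 2-fold rises were seen in 691 genes (4.62%) and more than 2-fold falls in 657 (4.39%), and the CPM of the groups did not overlap in 3586 genes (24%). These shares of all genes belong beside the counts of each gene list below, and no list was tested as a set. When libraries were scaled by their totals alone, the median of all genes moved to -0.49, against 0.018, and 8.62% of the calls were rises, against 49.9%. The first principal component of the 12 libraries held 48.4% of the variance, with scores of -41.6 to -31.8 at day 28 and 15.3 to 54.8 at day 7. Day 7 replicate 1, at 15.3, and day 7 replicate 6, at 24, stood nearest to the day 28 muscles. Leaving out any of the 12 libraries gave 5807 to 6547 calls.

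The genes with the largest rises and falls were picked among called genes whose groups did not overlap, so separation of their groups was required. They also needed a mean of at least 5 CPM over the 12 libraries, which the higher group alone could give. Of these genes, the largest rise was in Actc1, the alpha-actin of heart and of immature skeletal muscle. Its level was 186 to 1122 CPM (median 541) at day 28 and 3.51 to 10.4 CPM (median 7.37) at day 7. Every day 28 muscle was far above every day 7 muscle (log2 fold change 6.26 ± 0.47, adjusted p = 4.5e-12), and sham muscles averaged 143 CPM at day 28 and 207 CPM at day 7. Actc1 lies on mm10 at chr2:114047282-114053548, overlaps A530058N18Rik on the opposite strand and is nearly identical in its coding sequence to Acta1, the adult skeletal actin, so reads may have been split between the actins. The ratio of Actc1 to Acta1 counts within a library was 0.00652 to 0.0368 at day 28 and 0.000582 to 0.00108 at day 7.

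Several other genes with large rises belong to the sarcoplasmic reticulum, energy supply and excitability. Dhrs7c, a dehydrogenase of the sarcoplasmic reticulum at chr11:67798187-67816002, lay at 192 to 242 CPM (median 216) at day 28 and 8.32 to 29.2 CPM (median 13.1) at day 7. The groups did not overlap, day 7 replicate 1 stood above the other day 7 muscles (log2 fold change 3.9 ± 0.35, adjusted p = 1.5e-10), and sham averaged 176 CPM at day 28 and 199 CPM at day 7. Perm1, a muscle regulator of oxidative genes that works with PGC-1alpha and the ERR receptors, lay at 100.3 to 142 CPM (median 129) at day 28 and 4.81 to 18.8 CPM (median 12) at day 7 (log2 fold change 3.3 ± 0.23, adjusted p = 9.7e-13). Eno3, the muscle enolase of glycolysis, lay at 5329 to 6694 CPM (median 6050) at day 28 and 416 to 1521 CPM (median 715) at day 7 (log2 fold change 2.89 ± 0.30, adjusted p = 2.4e-09). For both genes all day 28 muscles were above all day 7 muscles. Mlf1, a cytoplasmic and nuclear adaptor protein, averaged 139 ± 18.5 CPM at day 28 and 11.7 ± 4.48 CPM at day 7 (log2 fold change 3.57 ± 0.24). Ramp1, the accessory subunit of the CGRP receptor, averaged 18.2 ± 3.37 CPM at day 28 and 2.18 ± 1.25 CPM at day 7 (3.07 ± 0.24). Kcnc1, a voltage-gated potassium channel, averaged 73.8 ± 10.2 CPM at day 28 and 11.8 ± 4.79 CPM at day 7 (2.65 ± 0.23). These groups did not overlap for any of the 3 genes. The other genes of the 12 with the largest rises were Odf3l2 (2.95 ± 0.59), Mettl21c (2.78 ± 0.36), a lysine methyltransferase, Mdga1 (2.71 ± 0.32), Smco1 (2.59 ± 0.32) and Sh3kbp1 (2.56 ± 0.20), an adaptor in receptor endocytosis.

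**Figure D1:**
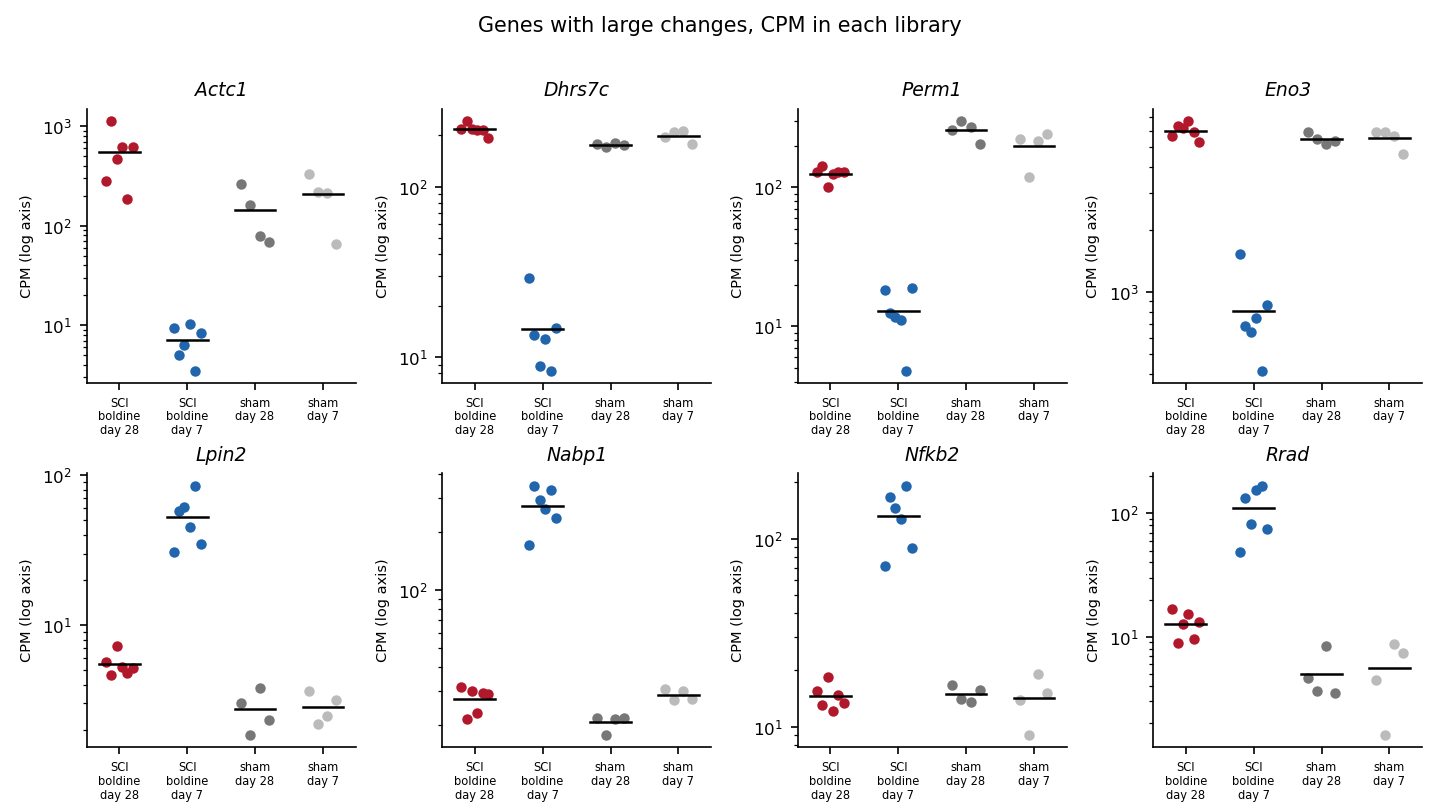
CPM (log axis) of 4 genes that rose and 4 that fell, in 6 SCI boldine muscles at day 28, 6 at day 7, 4 sham muscles at day 28 and 4 at day 7. Each point is a muscle and each bar a group mean. In all 8 genes the SCI boldine groups do not overlap, which the rule that picked them required.

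The largest falls included the slow fibre gene Myh7 and Mhrt from the same locus. Myh7, the slow myosin heavy chain, lay at 1.02 to 16.7 CPM (median 4.76) at day 28 and 98 to 259.9 CPM (median 149) at day 7 (log2 fold change -4.63 ± 0.58, adjusted p = 9.1e-08). Day 28 replicate 5 was the highest of its group and still below every day 7 muscle, and sham muscles averaged 521 CPM at day 28 and 495 CPM at day 7. Mhrt, a noncoding RNA transcribed from the opposite strand of the Myh7 locus, had 1.13 ± 1.19 CPM at day 28 and 33.6 ± 10.8 CPM at day 7 (-4.91 ± 0.60), and counts made without strand cannot tell it apart from Myh7.

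Ggt6, of the gamma-glutamyltransferase family, had 0 to 0.743 CPM (median 0.288) at day 28 and 4.17 to 17.1 CPM (median 9.21) at day 7 (log2 fold change -4.89 ± 0.50, adjusted p = 1.7e-09), so day 28 muscles were at or near 0. Nabp1, a single-stranded DNA binding protein, lay at 21.6 to 31.6 CPM (median 29.3) at day 28 and 172 to 346 CPM (median 278) at day 7 (log2 fold change -3.31 ± 0.20, adjusted p = 3.9e-14). Rrad, a small GTPase that restrains L-type calcium channels, lay at 8.84 to 16.9 CPM (median 12.9) at day 28 and 48.7 to 168 CPM (median 108) at day 7 (log2 fold change -3.11 ± 0.45, adjusted p = 8.4e-07). In all 3 genes the groups were apart, and sham means of Nabp1, at 20.8 CPM at day 28 and 28.8 CPM at day 7, were near the day 28 level. Lpin2, a phosphatidate phosphatase, averaged 5.46 ± 0.93 CPM at day 28 and 52.5 ± 20.1 CPM at day 7 (-3.26 ± 0.28). Kcnk5, a background potassium channel, averaged 2.03 ± 1.28 CPM at day 28 and 16.7 ± 5.71 CPM at day 7 (-3.02 ± 0.43). Ces2c, a carboxylesterase, averaged 1.68 ± 0.439 CPM at day 28 and 17.8 ± 6.7 CPM at day 7 (-3.4 ± 0.33). Krt8, an epithelial keratin, had a log2 fold change of -3.34 ± 0.60 with day 7 replicate 3 at 30.5 CPM against 4.49 to 12.6 CPM in the other day 7 muscles. Plekhh1 (-3.21 ± 0.26) and Nfkb2 (-3.19 ± 0.26) were also among the 12 largest falls. Nfkb2 overlaps Psd, Plekhh1 overlaps Pigh and Krt8 overlaps Gm36026 on the opposite strand, which counts without strand cannot separate, and the same holds below for Gadd45a, Gapdh, Rpl3, Jun, Mt2 and Timp1, each with an opposite-strand neighbour.

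Genes of the neuromuscular junction moved in opposite directions, with 3 of 14 higher and 8 lower at day 28 (median -0.49). Of all genes tested 21.5% rose and 21.6% fell, so the share of rises was near that of all genes. With library totals 2 rose and 10 fell, with a median of -1.02. The receptor subunits shared by immature and adult receptors were among the genes that fell. Chrna1, the alpha subunit that binds acetylcholine, lay at 24.9 to 37.9 CPM (median 35.2) at day 28 and 102 to 188 CPM (median 152) at day 7 (log2 fold change -2.15 ± 0.21, adjusted p = 9.7e-10). All day 28 muscles were below all day 7 muscles and above the sham means of 14.5 CPM at day 28 and 15.1 CPM at day 7. Chrnd, the delta subunit, averaged 4.62 ± 0.792 CPM at day 28 and 15.1 ± 4.97 CPM at day 7 (-1.7 ± 0.25), and Chrnb1, the beta subunit, averaged 77.9 ± 12.1 CPM at day 28 and 114 ± 18.6 CPM at day 7 (-0.55 ± 0.12). Chrne, the subunit of the adult receptor, went the other way at 25.5 to 35.9 CPM (median 28.9) at day 28 and 14.6 to 22 CPM (median 15.7) at day 7 (log2 fold change 0.76 ± 0.17, adjusted p = 5e-04), with no call under library totals. Chrng, the subunit of the fetal receptor that epsilon replaces, was at 0.692 to 3.11 CPM at day 28 and 0.494 to 4.26 CPM at day 7 and was not called (adjusted p = 0.5). The ratio of Chrne to Chrna1 counts within a library, which no scaling touches, was 0.696 to 1.2 at day 28 and 0.0845 to 0.217 at day 7, with no overlap.

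Among the proteins that place and hold the receptor, Dok7, the adaptor that activates the kinase MuSK, rose, at 20.2 to 44.4 CPM (median 30) at day 28 and 8.92 to 15.9 CPM (median 9.73) at day 7 (log2 fold change 1.5 ± 0.17, adjusted p = 8.4e-09). Ache, the esterase that breaks down acetylcholine, rose, at 38 to 50.5 CPM (median 42.1) at day 28 and 14.4 to 30.6 CPM (median 17.3) at day 7 (log2 fold change 1.16 ± 0.15, adjusted p = 1.3e-07), and day 7 replicate 1 stood nearest to the day 28 muscles. Musk itself averaged 35.9 ± 5.04 CPM at day 28 and 57.6 ± 10.3 CPM at day 7 (-0.68 ± 0.15). Colq, the collagen tail that anchors the esterase, averaged 8.55 ± 1.65 CPM at day 28 and 25.9 ± 10.4 CPM at day 7 (-1.6 ± 0.33), and Ncam1, an adhesion molecule of denervated fibres, averaged 11 ± 1.8 CPM at day 28 and 22.4 ± 7.75 CPM at day 7 (-1.03 ± 0.20). The anchor and the esterase thus changed in opposite directions. Rapsn, which clusters the receptor, had a log2 fold change of -0.34 ± 0.12, and was not called without day 28 replicate 3 or day 7 replicate 2 or 5 (adjusted p = 0.057 to 0.094).

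In the list of regulators and response genes of lost nerve activity, 6 of 8 were lower at day 28 and 2 higher, with a median of -1.56. With library totals 2 rose and 6 fell, with a median of -2.08. Gadd45a, a stress protein induced by denervation, lay at 49.6 to 76.2 CPM (median 59.3) at day 28 and 290.3 to 522 CPM (median 345) at day 7 (log2 fold change -2.53 ± 0.24, adjusted p = 4.1e-10). Runx1, a transcription factor that denervated fibres switch on, lay at 5.67 to 13.1 CPM (median 9.56) at day 28 and 35.8 to 77.9 CPM (median 49.9) at day 7 (log2 fold change -2.51 ± 0.27, adjusted p = 4.4e-09). Hdac4, the deacetylase that represses Dach2 in denervated muscle, lay at 58.6 to 91.6 CPM (median 67.7) at day 28 and 180.3 to 232 CPM (median 208) at day 7 (log2 fold change -1.53 ± 0.12, adjusted p = 2.2e-11). These 3 had the smallest p of the list, and 4 of its 8 members had groups that did not overlap (24% of all genes tested). All 3 genes were lower in every day 28 muscle than in any day 7 muscle, and every day 28 muscle was above the sham means. Those were 18 CPM at day 28 and 15.8 CPM at day 7 for Gadd45a, 1.82 CPM at day 28 and 2.27 CPM at day 7 for Runx1 and 39.5 CPM at day 28 and 45.7 CPM at day 7 for Hdac4. Dach2 and Hdac9, which activity keeps on and which repress myogenin, were the 2 that rose, Dach2 at 2.74 ± 0.831 CPM at day 28 and 1.01 ± 0.329 CPM at day 7 (1.42 ± 0.38) and Hdac9 at 5.57 ± 2.56 CPM at day 28 and 1.56 ± 0.828 CPM at day 7 (1.83 ± 0.34). Myog, myogenin, averaged 5.47 ± 1.32 CPM at day 28 and 12.2 ± 5.5 CPM at day 7 (-1.16 ± 0.26), with overlapping groups. Ankrd1 (-1.83 ± 0.36), a stress-responsive titin-binding protein, and Nrcam (-1.59 ± 0.47), an adhesion molecule, also fell.

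Transcripts of the ligases MuRF1 and atrogin-1 were lower at day 28, and other members of their list went both ways. Trim63, which encodes MuRF1, lay at 159.9 to 347 CPM (median 198) at day 28 and 431 to 771 CPM (median 729) at day 7 (log2 fold change -1.58 ± 0.20, adjusted p = 1.4e-07). Fbxo32, which encodes atrogin-1, lay at 296 to 607 CPM (median 388) at day 28 and 1094 to 1586 CPM (median 1453) at day 7 (log2 fold change -1.75 ± 0.21, adjusted p = 4.9e-08). The groups did not overlap for either ligase, and the sham means were 204 CPM at day 28 and 220.0 CPM at day 7 for Trim63 and 368 CPM at day 28 and 488 CPM at day 7 for Fbxo32. Fbxo30, the ligase known as MUSA1, averaged 14.4 ± 2.32 CPM at day 28 and 37.7 ± 5.71 CPM at day 7 (-1.38 ± 0.18). Of the 14 members, 3 rose and 5 fell, with a median of 0.088. By library totals 0 rose and 10 fell, with a median of -0.42. Besides the 3 ligases, Klhl38 (-0.82 ± 0.21) and Fbxo31 (-0.25 ± 0.086) fell, and Fbxo40 (0.5 ± 0.12), Cblb (0.55 ± 0.13) and Foxo4 (0.38 ± 0.079) rose. The rises of all 3 were lost with library totals.

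Transcripts of all 31 proteasome subunits measured were lower at day 28, against 21.6% of all genes tested, with a median of -0.68. With library totals 0 rose and 31 fell, with a median of -1.2, and no library left out changed the count. Psmd2, a scaffold of the regulatory particle, lay at 280.5 to 321 CPM (median 295) at day 28 and 594 to 904 CPM (median 736) at day 7 (log2 fold change -1.33 ± 0.10, adjusted p = 5.2e-12). Psma7, a subunit of the outer ring of the catalytic core, lay at 76.6 to 90.8 CPM (median 81.7) at day 28 and 139 to 217 CPM (median 169) at day 7 (log2 fold change -1.06 ± 0.11, adjusted p = 3.7e-09). Both were lower in every day 28 muscle than in any day 7 muscle, and 30 of the 31 subunits showed such a separation. Among all genes tested the groups did not overlap in 24%, in either direction. Psmb5, the subunit with chymotrypsin-like activity, averaged 38.5 ± 4.9 CPM at day 28 and 67.4 ± 12.7 CPM at day 7 (-0.81 ± 0.13), and Psma3 had a log2 fold change of -0.32 ± 0.079. Summed over the 31 subunits the level was 3370 to 3880 CPM at day 28 and 4980 to 6920 CPM at day 7.

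Autophagy and lysosome genes fell in 10 of 16 cases and rose in 3 (median -0.35). Under library totals 0 rose and 13 fell, with a median of -0.87. Map1lc3a, an LC3 protein of the autophagosome, lay at 143 to 179.7 CPM (median 153) at day 28 and 362 to 422 CPM (median 401) at day 7 (log2 fold change -1.32 ± 0.077, adjusted p = 3.3e-14). Ctsl, the lysosomal protease cathepsin L, lay at 73.9 to 98.3 CPM (median 92.6) at day 28 and 204 to 297 CPM (median 241) at day 7 (log2 fold change -1.46 ± 0.12, adjusted p = 1.2e-11). Sqstm1, the cargo receptor p62, averaged 582 ± 39.5 CPM at day 28 and 1150 ± 128 CPM at day 7 (-0.98 ± 0.12). The groups of all 3 were apart, as were those of 10 of the 16 members, against 24% of all genes tested. The members that rose were Ctsb (0.65 ± 0.058), cathepsin B, Tfeb (0.6 ± 0.11), the transcription factor of lysosomal genes, and Optn (0.45 ± 0.11), a cargo receptor, and none of the 3 was called higher with library totals. Ctsb overlaps Fdft1 in the annotation, so part of its counts may belong to that gene.

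Fast fibre genes rose and most slow fibre genes fell. Of 13 fast fibre genes 12 rose and none fell by edgeR's test (21.5% of all genes rose), with a median of 1.32. On library totals 10 rose and 0 fell, with a median of 0.81. Mylpf, the fast regulatory myosin light chain, lay at 9744 to 12400 CPM (median 11140) at day 28 and 1779 to 3618 CPM (median 2281) at day 7 (log2 fold change 2.18 ± 0.18, adjusted p = 1.6e-11). Myl1, the fast essential light chain, lay at 9455 to 11510 CPM (median 10920) at day 28 and 1902 to 3835 CPM (median 2555) at day 7 (log2 fold change 1.98 ± 0.18, adjusted p = 1.7e-10). Day 28 muscles were above all day 7 muscles for both, and above the sham mean for Mylpf, which was 6376 CPM at day 28 and 6883 CPM at day 7. Myh4, the IIb myosin heavy chain, lay at 83760 to 106100 CPM (median 97000) at day 28 and 24140 to 49610 CPM (median 32630) at day 7 (log2 fold change 1.42 ± 0.22, adjusted p = 2.5e-06), with sham means of 78710 CPM at day 28 and 92360 CPM at day 7. Casq1, the fast calsequestrin that stores calcium, averaged 3645 ± 282 CPM at day 28 and 998 ± 309.8 CPM at day 7 (1.87 ± 0.20). Myh1, the IIx heavy chain, was the member not called (0.54 ± 0.26, adjusted p = 0.091). Of the general markers, Acta1 (1.75 ± 0.15) and Ckm (1.13 ± 0.14) rose with 3 others of 6, at a median of 1.08. Des, the intermediate filament desmin, was the sixth and fell, at 3094 ± 115 CPM at day 28 and 4472 ± 280.5 CPM at day 7 (-0.53 ± 0.075).

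Of 11 slow fibre genes 7 fell and 2 rose, with a median of -1.88. With library totals 1 rose and 7 fell, with a median of -2.37. Tnnt1, slow troponin T, lay at 5.95 to 23.9 CPM (median 11.7) at day 28 and 40.4 to 154 CPM (median 86.7) at day 7 (log2 fold change -2.73 ± 0.42, adjusted p = 2.5e-06). Atp2a2, the slow-type calcium pump SERCA2, lay at 45.2 to 56 CPM (median 49.5) at day 28 and 129 to 286 CPM (median 195) at day 7 (log2 fold change -1.97 ± 0.24, adjusted p = 6.9e-08). The groups were apart for these genes, and the day 28 muscles also stood below the sham means of 125 CPM at day 28 and 97.5 CPM at day 7 for Tnnt1 and of 344 CPM at day 28 and 291 CPM at day 7 for Atp2a2. Tnnc1, shared with heart, averaged 2.65 ± 2.16 CPM at day 28 and 16.3 ± 5.48 CPM at day 7 (-2.63 ± 0.51), and Tnni1 averaged 3.09 ± 2.26 CPM at day 28 and 11.3 ± 2.64 CPM at day 7 (-1.89 ± 0.47). Within a library the ratio of Tnnt1 to Tnnt3 counts was 0.000244 to 0.000955 at day 28 and 0.00295 to 0.0103 at day 7, and that of Atp2a2 to Atp2a1 was 0.00107 to 0.00144 at day 28 and 0.00433 to 0.0112 at day 7. Both ratios were lower in every day 28 muscle. The members that rose were Casq2, the slow and cardiac calsequestrin, at 21.1 ± 4.94 CPM at day 28 and 7.22 ± 1.59 CPM at day 7 (1.55 ± 0.25), and Myl3, the slow essential light chain, at 35.4 to 96.3 CPM (median 45.1) at day 28 and 18.6 to 35.2 CPM (median 23) at day 7 (log2 fold change 1.11 ± 0.39, adjusted p = 0.021). The call of Myl3 was lost with library totals (adjusted p = 0.18) and the gene was not called without day 28 replicate 2 (adjusted p = 0.085), the highest of its group. The summed slow fibre level was 143 to 289 CPM at day 28 and 411 to 998 CPM at day 7. A smaller number of slow fibres and less slow-fibre RNA in each fibre cannot be told apart in bulk muscle, and the same holds for every cell type below.

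**Figure D2:**
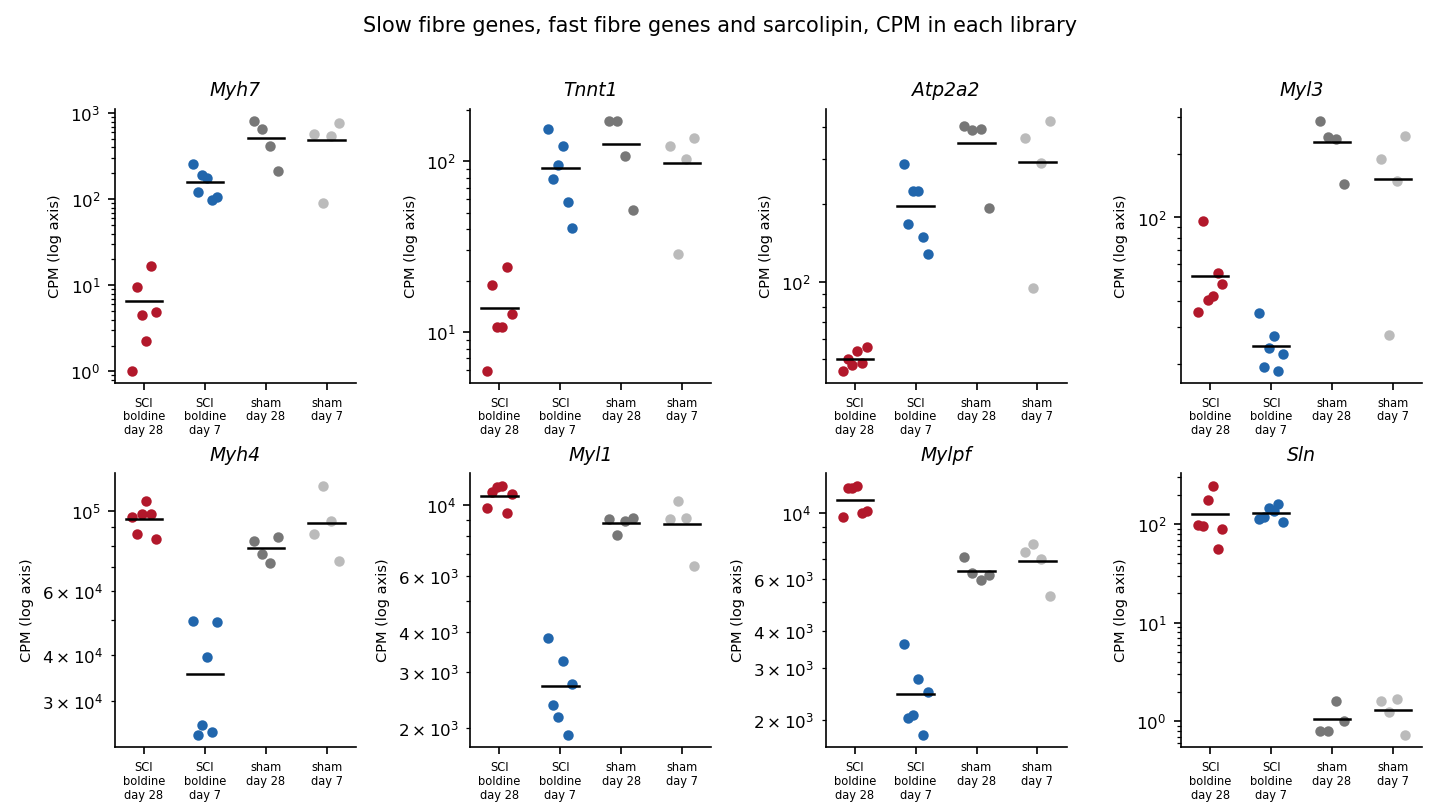
CPM (log axis) of slow fibre genes, fast fibre genes and Sln in each muscle of the 4 groups shown, SCI boldine at day 28 and day 7 and sham at day 28 and day 7, with bars at the group means. Among these 4 groups Myh7, Tnnt1 and Atp2a2 are lowest in SCI boldine muscle at day 28, Myh4, Myl1 and Mylpf are lowest in SCI boldine muscle at day 7, and Sln is near 1 CPM in sham and above 50 CPM in all 12 SCI boldine muscles.

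Calcium handling genes rose in 8 of 12 cases and fell in 2 (median 0.5). By library totals 5 rose and 2 fell, with a median of 0.007. Besides the calsequestrins, Trdn (0.98 ± 0.12), triadin of the release complex, and Jph1 (0.81 ± 0.13), which ties the sarcoplasmic reticulum to the T-tubule, rose. Cacng1, the gamma subunit of the muscle L-type calcium channel, fell, at 257 to 363 CPM (median 312) at day 28 and 447 to 845 CPM (median 661) at day 7 (log2 fold change -1.08 ± 0.14, adjusted p = 1.5e-07). Sln, sarcolipin, which uncouples the calcium pump from calcium transport, lay at 56.3 to 247 CPM (median 98.1) at day 28 and 105 to 159 CPM (median 128) at day 7. The groups overlapped and the gene was not called (log2 fold change -0.024 ± 0.30, adjusted p = 0.96), while the sham means were 1.05 CPM at day 28 and 1.31 CPM at day 7. Among the 7 developmental muscle genes tested, Actc1 rose and 4 fell, with a median of -0.51. Those were Myf6 (-1.51 ± 0.15), Mymx (-3.02 ± 0.70), the micropeptide of myoblast fusion, Myh8 (-0.72 ± 0.27), the perinatal heavy chain, and Myod1 (-0.51 ± 0.21). Myh8 was not called without day 28 replicate 1, 3 or 6 or day 7 replicate 2 or 4 (adjusted p = 0.068 to 0.095), and Myod1 was not called without day 28 replicate 1, 2 or 5 or day 7 replicate 4, 5 or 6 (adjusted p = 0.058 to 0.17). Of the developmental muscle list, 2 fell without day 28 replicate 1 or day 7 replicate 4. With library totals 1 rose and 4 fell, with a median of -1.02.

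Transcripts for enzymes of energy metabolism were mostly higher at day 28. All 13 glycolysis and glycogen genes rose, with a median of 1.25. Under library totals 12 rose and 0 fell, with a median of 0.74. Pgk1, phosphoglycerate kinase, lay at 1005 to 1107 CPM (median 1063) at day 28 and 278 to 394 CPM (median 323) at day 7 (log2 fold change 1.71 ± 0.11, adjusted p = 2.4e-13). Ldha, the lactate dehydrogenase of fast muscle, lay at 2514 to 2788 CPM (median 2676) at day 28 and 468 to 1140 CPM (median 666) at day 7 (log2 fold change 1.87 ± 0.24, adjusted p = 9.7e-08). Gapdh, often used as a reference gene, lay at 7935 to 9223 CPM (median 8429) at day 28 and 2530 to 3620 CPM (median 2871) at day 7 (log2 fold change 1.53 ± 0.12, adjusted p = 4e-12). The groups were apart for all 13 genes, against 24% of all genes tested. The lowest day 28 muscle had more than 2 times the Ldha level of the highest day 7 muscle.

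The 41 nuclear genes of oxidative phosphorylation all rose (median 0.68). On library totals 18 rose and 1 fell, with a median of 0.17. Cox7a1, the muscle form of a cytochrome oxidase subunit, lay at 118 to 147 CPM (median 124) at day 28 and 31.5 to 65.8 CPM (median 32.5) at day 7 (log2 fold change 1.71 ± 0.15, adjusted p = 5.1e-11). Sdha, the catalytic subunit of succinate dehydrogenase, lay at 844 to 1003 CPM (median 904) at day 28 and 421 to 541 CPM (median 434) at day 7 (log2 fold change 1.03 ± 0.075, adjusted p = 2.2e-12). Day 7 replicate 1 was the highest of its group for both, and every day 28 muscle was higher still. All 10 mitochondrially encoded genes rose as well (median 0.72), with 5 rises and no fall with library totals. Of these mt-Nd1 lay at 7611 to 10410 CPM (median 8432) at day 28 and 4522 to 5940 CPM (median 4793) at day 7 (log2 fold change 0.81 ± 0.089, adjusted p = 8.2e-09), and mt-Co1 at 22370 to 28420 CPM (median 24790) at day 28 and 13310 to 17880 CPM (median 15000) at day 7 (log2 fold change 0.72 ± 0.10, adjusted p = 4.5e-07). All 17 genes of the tricarboxylic acid cycle and pyruvate dehydrogenase rose (median 0.73). With library totals 11 rose and 2 fell, with a median of 0.23. Idh3a, the catalytic subunit of isocitrate dehydrogenase, lay at 537 to 602 CPM (median 551) at day 28 and 157 to 262 CPM (median 192) at day 7 (log2 fold change 1.51 ± 0.10, adjusted p = 9.1e-13).

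Of 20 fatty acid genes 8 were higher and 1 lower (median 0.2), while 43.1% of all genes tested differed in either direction. By library totals 2 rose and 9 fell, with a median of -0.31. Acadm, the medium-chain acyl-CoA dehydrogenase, lay at 256 to 326 CPM (median 276) at day 28 and 108 to 175 CPM (median 132) at day 7 (log2 fold change 1.07 ± 0.11, adjusted p = 2.4e-09), with the groups apart. Fabp3, the fatty acid binding protein of muscle, averaged 286 ± 84.2 CPM at day 28 and 119.8 ± 38 CPM at day 7 (1.25 ± 0.26). The member that fell, Slc25a20, the carnitine carrier, changed by -0.28 ± 0.10 and was not called without day 28 replicate 1, 3 or 5 (adjusted p = 0.05 to 0.066). Of the regulators 7 of 10 rose (median 0.71). Under library totals 5 rose and 3 fell, with a median of 0.2. Ppargc1a, the coactivator PGC-1alpha, lay at 33 to 37.5 CPM (median 33.7) at day 28 and 15.3 to 19.1 CPM (median 17.1) at day 7 (log2 fold change 1 ± 0.10, adjusted p = 1.7e-09). Ckmt2, the mitochondrial creatine kinase, lay at 399 to 616 CPM (median 462) at day 28 and 66.9 to 152 CPM (median 76.9) at day 7 (log2 fold change 2.48 ± 0.20, adjusted p = 1.6e-11). The groups were apart for both genes, and the Ckmt2 levels of day 28 stayed below the sham means of 997 CPM at day 28 and 799.6 CPM at day 7. Esrra (0.76 ± 0.068), a receptor partner of PGC-1alpha, and Ppargc1b (1.25 ± 0.26) rose too.

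**Figure D3:**
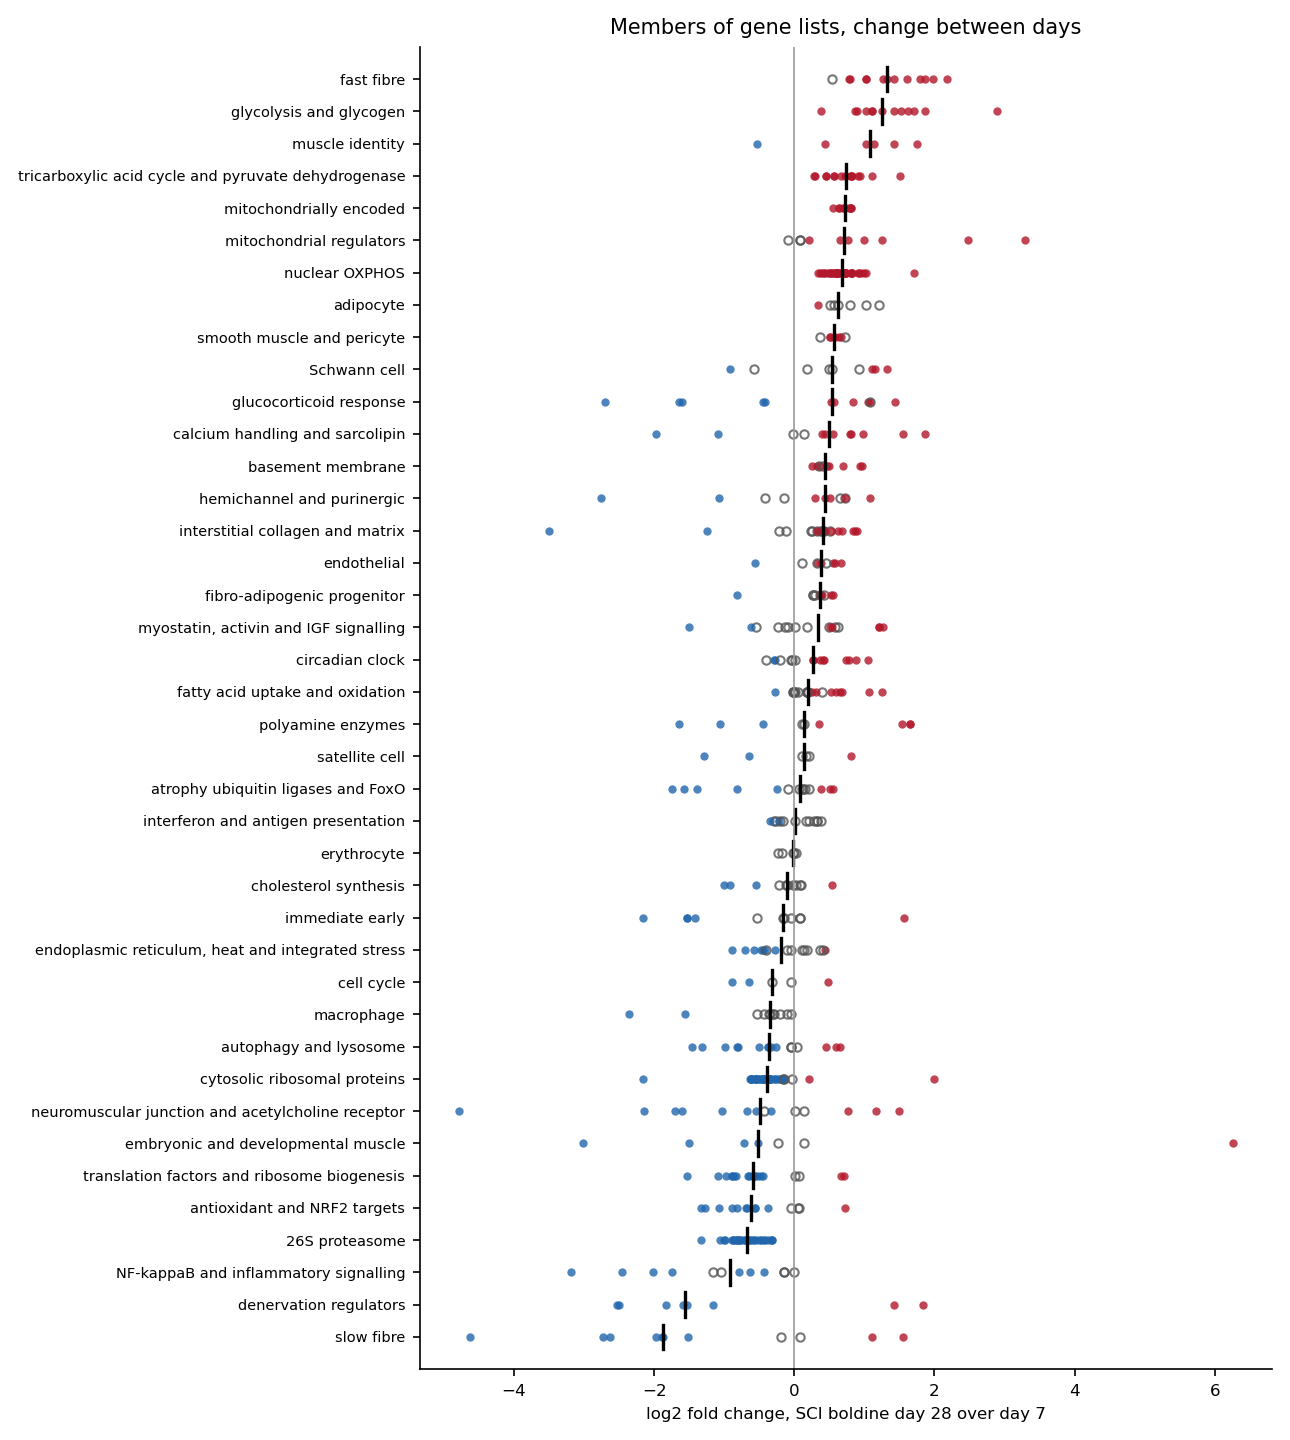
Log2 fold change of SCI boldine day 28 over day 7 for each tested member of the 40 gene lists with more than 2 tested genes, ordered by the list median (black bar). Filled red points rose, filled blue points fell and open points were not called, and the medians run from 1.32 for fast fibre genes to -1.88 for slow fibre genes, the lowest.

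Most transcripts of the protein synthesis machinery were lower at day 28. Of 47 ribosomal protein genes tested 42 fell and 2 rose (median -0.39). On library totals 1 rose and 46 fell, with a median of -0.91. Rpl3 lay at 47.6 to 62.8 CPM (median 58.7) at day 28 and 187 to 301 CPM (median 276) at day 7 (log2 fold change -2.16 ± 0.16, adjusted p = 3.5e-12). Rpl3l, the copy of Rpl3 that striated muscle uses in its place, lay at 461 to 506 CPM (median 477) at day 28 and 80.9 to 186 CPM (median 107) at day 7 (log2 fold change 2 ± 0.21, adjusted p = 2.6e-09). The pair thus moved in opposite directions without overlap, and the ratio of Rpl3l to Rpl3 counts within a library was 7.4 to 10.3 at day 28 and 0.269 to 0.954 at day 7. In sham muscle that ratio was 11.3 to 16.2 at day 28 and 11.8 to 14.9 at day 7, above all 12 SCI boldine muscles. The other member that rose was Rps2 (0.21 ± 0.065), which fell with library totals (-0.30, adjusted p = 0.0013). Many ribosomal genes have processed pseudogenes, and the counting of reads that fit several places is not given in the sources used here.

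Translation factors and genes of ribosome assembly fell in 16 of 20 cases and rose in 2 (median -0.59). With library totals 2 rose and 18 fell, with a median of -1.1. Ncl, nucleolin, lay at 184 to 225 CPM (median 208) at day 28 and 301 to 462 CPM (median 400.5) at day 7 (log2 fold change -0.88 ± 0.085, adjusted p = 5.3e-10). Myc, a driver of ribosome production, lay at 5.17 to 8.53 CPM (median 7.04) at day 28 and 13.5 to 26.3 CPM (median 21.1) at day 7 (log2 fold change -1.53 ± 0.23, adjusted p = 1.6e-06). Eif4ebp1, the repressor of cap-dependent translation, averaged 43.4 ± 2.48 CPM at day 28 and 80.6 ± 14.7 CPM at day 7 (-0.9 ± 0.14). Eif4e, the cap-binding factor that it holds back, rose, at 77.9 to 90.7 CPM (median 80.8) at day 28 and 47.7 to 52.3 CPM (median 49.7) at day 7 (log2 fold change 0.71 ± 0.067, adjusted p = 2.9e-10), and the groups of both were apart. Eef1a2, the elongation factor of adult muscle, rose (0.67 ± 0.069) while Eef1a1, the form of most other cells and of young muscle, fell (-0.86 ± 0.16). Their ratio of counts within a library was 4.86 to 5.93 at day 28 and 1.09 to 3.13 at day 7.

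In the growth factor list 5 of 16 genes rose and 2 fell (median 0.34), near the 43.1% of all genes tested that differed in either direction. By library totals 2 rose and 7 fell, with a median of -0.15. Akt1, a kinase of the insulin and IGF pathway, lay at 61.6 to 74.4 CPM (median 69.2) at day 28 and 134 to 244 CPM (median 199.6) at day 7 (log2 fold change -1.51 ± 0.17, adjusted p = 1.5e-08), and Akt2, its relative, changed by -0.62 ± 0.057. Irs1, the docking protein upstream of them, lay at 58 to 87.9 CPM (median 71.2) at day 28 and 22.1 to 45.9 CPM (median 30.4) at day 7 (log2 fold change 1.2 ± 0.17, adjusted p = 1e-06). Acvr1b, a type I receptor of myostatin and activin, lay at 125 to 166 CPM (median 141) at day 28 and 38.4 to 89.9 CPM (median 55.6) at day 7 (log2 fold change 1.21 ± 0.21, adjusted p = 1.2e-05). The groups were apart for Akt1, Irs1 and Acvr1b. Of the 9 polyamine enzymes 4 rose and 3 fell (median 0.14). Under library totals 3 rose and 5 fell, with a median of -0.37. Odc1, which makes putrescine, lay at 139.7 to 260.1 CPM (median 193) at day 28 and 500.2 to 734 CPM (median 570.0) at day 7 (log2 fold change -1.65 ± 0.18, adjusted p = 5.6e-09). Amd1, which supplies the donor for the later steps, lay at 1018 to 1365 CPM (median 1166) at day 28 and 209.6 to 670.3 CPM (median 372) at day 7 (log2 fold change 1.54 ± 0.32, adjusted p = 0.00018), and Smox, spermine oxidase, averaged 427 ± 48.4 CPM at day 28 and 136 ± 75.2 CPM at day 7 (1.65 ± 0.36). Amd1 and Amd2 are near-identical copies whose counts may be shared.

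Antioxidant genes fell in 10 of 14 cases tested and rose in 1 (median -0.62). On library totals 1 rose and 12 fell, with a median of -1.14. Many of them are targets of NRF2, a factor that binds antioxidant response elements. Among promoters, 5 of the 11 antioxidant genes with an entry hold the element's core TGACNNNGC, on either strand, from 250 bases before to 50 after the start. They are Gclm, Nfe2l2, Sod1, Srxn1 and Txnrd1. Of the 25 proteasome genes with an entry 4 (16.0%) hold it (Psmb5, Psmb6, Psmc6 and Psmd12), near the 14.0% of all 27025 genes with an entry. The 250 bases before the start of 3 such genes that fell are shown as examples. They are from RefSeq on GRCm38.p6 and run 5′ to 3′ along the gene, with the match in capitals. They are Gclm at chr3:122245307-122245556 (plus strand), Sod1 at chr16:90220512-90220761 (plus strand) and Psmb5 at chr14:54617996-54618245 (minus strand).
Gclm: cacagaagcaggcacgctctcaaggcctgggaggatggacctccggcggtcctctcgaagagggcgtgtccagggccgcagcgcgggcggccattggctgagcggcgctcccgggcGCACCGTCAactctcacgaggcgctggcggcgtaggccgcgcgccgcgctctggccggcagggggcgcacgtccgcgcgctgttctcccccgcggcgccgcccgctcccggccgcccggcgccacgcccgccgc
Sod1: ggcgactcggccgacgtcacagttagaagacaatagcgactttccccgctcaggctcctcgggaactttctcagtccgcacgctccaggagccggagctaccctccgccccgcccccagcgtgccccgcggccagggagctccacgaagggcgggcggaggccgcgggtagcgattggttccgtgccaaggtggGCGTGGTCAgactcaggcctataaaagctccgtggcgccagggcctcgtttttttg
Psmb5: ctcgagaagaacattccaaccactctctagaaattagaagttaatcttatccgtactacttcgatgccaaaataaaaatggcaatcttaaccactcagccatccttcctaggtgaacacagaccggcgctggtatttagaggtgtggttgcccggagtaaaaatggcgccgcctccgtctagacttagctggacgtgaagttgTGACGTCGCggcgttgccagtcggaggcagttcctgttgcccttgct
The match begins 134 bases before the start in Gclm, 56 in Sod1 and 47 in Psmb5, and is on the opposite strand in Gclm and Sod1. A match is a description of these letters and not a measured binding site, and its bearing on the changes was not tested.

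Srxn1, which repairs oxidized peroxiredoxins, lay at 15.9 to 25.1 CPM (median 17.4) at day 28 and 33.9 to 76.7 CPM (median 41.9) at day 7 (log2 fold change -1.33 ± 0.22, adjusted p = 7e-06). Nqo1, a quinone reductase, lay at 13.6 to 21.7 CPM (median 19.7) at day 28 and 24.7 to 55.3 CPM (median 40.6) at day 7 (log2 fold change -1.07 ± 0.19, adjusted p = 3e-05). Hmox1, the enzyme that breaks down heme, averaged 5.59 ± 1.5 CPM at day 28 and 13.6 ± 7.37 CPM at day 7 (-1.28 ± 0.24). The groups did not overlap for these 3 genes. Gclm, the modifier subunit of glutathione synthesis, averaged 21 ± 2.13 CPM at day 28 and 30.8 ± 1.44 CPM at day 7 (-0.56 ± 0.081), and Sod1, the cytosolic superoxide dismutase, averaged 113 ± 4.63 CPM at day 28 and 180.4 ± 19.7 CPM at day 7 (-0.68 ± 0.090). Txnrd1, thioredoxin reductase, holds the element as well and was not called, at 88.9 to 103 CPM at day 28 and 80.5 to 124 CPM at day 7 (-0.044 ± 0.091, adjusted p = 0.73). Sod2, the mitochondrial superoxide dismutase, was the member that rose, at 236 to 282 CPM (median 269.5) at day 28 and 148 to 178 CPM (median 159) at day 7 (log2 fold change 0.73 ± 0.057, adjusted p = 9.1e-12). The ratio of Sod2 to Sod1 counts within a library was 1.95 to 2.48 at day 28 and 0.756 to 1.05 at day 7. Sod1 overlaps Scaf4 in the annotation.

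Genes of NF-kappaB and inflammatory signalling fell in 7 of 12 cases and none rose (median -0.92). With library totals 0 rose and 12 fell, with a median of -1.44. Subunits of NF-kappaB itself were among the genes that fell. Nfkb2, the p100 precursor of the non-canonical pathway, lay at 12.1 to 18.3 CPM (median 14) at day 28 and 71.6 to 192 CPM (median 137) at day 7 (log2 fold change -3.19 ± 0.26, adjusted p = 1.6e-11). Relb, its partner, lay at 4.74 to 9.34 CPM (median 7.5) at day 28 and 28.4 to 52.3 CPM (median 41) at day 7 (log2 fold change -2.46 ± 0.22, adjusted p = 1.4e-10). Rela, the p65 subunit of the canonical pathway, lay at 13.5 to 18.3 CPM (median 17.4) at day 28 and 19.9 to 28.5 CPM (median 26.2) at day 7 (log2 fold change -0.63 ± 0.11, adjusted p = 3e-05). Tnfrsf12a, the TWEAK receptor Fn14, lay at 4.27 to 10.8 CPM (median 6.54) at day 28 and 16.2 to 33.4 CPM (median 23.4) at day 7 (log2 fold change -1.75 ± 0.28, adjusted p = 5.7e-06). Each was lower in every day 28 muscle than in any day 7 muscle, and sham means for Nfkb2 were 14.9 CPM at day 28 and 14.3 CPM at day 7. Of the 12 members 5 had groups that did not overlap, against 24% of all genes tested. Nfkb1, the p105 precursor of the canonical pathway, was not called (-0.15 ± 0.086, adjusted p = 0.16), and its difference from Nfkb2 was not tested. Of 13 interferon and antigen presentation genes 2 fell, H2-D1 (-0.34 ± 0.11) and B2m (-0.22 ± 0.087), and none rose by edgeR's test. By library totals 0 rose and 6 fell, with a median of -0.51. B2m was not called without day 28 replicate 1, 3 or 4 or day 7 replicate 6 (adjusted p = 0.073 to 0.13). Of the interferon list, 1 rose without day 28 replicate 3, and 1 fell without day 28 replicate 1, 3 or 4 or day 7 replicate 6.

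Glucocorticoid-responsive genes split, with 6 of 12 higher and 5 lower (median 0.54). Under library totals 3 rose and 5 fell, with a median of 0.039. Fkbp5, a chaperone of the glucocorticoid receptor and a target of it, lay at 52.2 to 165 CPM (median 106) at day 28 and 21.5 to 48.6 CPM (median 42.7) at day 7 (log2 fold change 1.44 ± 0.29, adjusted p = 0.00014). Klf9, another target, averaged 249 ± 17 CPM at day 28 and 139.5 ± 30.2 CPM at day 7 (0.83 ± 0.12). Mt2, a metallothionein that also answers to metals, lay at 2.51 to 13.4 CPM (median 11.1) at day 28 and 15.9 to 142 CPM (median 47.9) at day 7 (log2 fold change -2.71 ± 0.46, adjusted p = 1.2e-05), and Cdkn1a, the cell cycle inhibitor p21, lay at 15.7 to 29.8 CPM (median 24.7) at day 28 and 48.6 to 102 CPM (median 70.3) at day 7 (log2 fold change -1.65 ± 0.27, adjusted p = 8.2e-06). The groups of all 4 were apart, although day 28 levels of Fkbp5 spread widely. Of the glucocorticoid list, 3 fell without day 28 replicate 1 or 2 or day 7 replicate 2 or 6. Circadian genes rose in 9 of 16 cases and fell in 2 (median 0.27). On library totals 2 rose and 9 fell, with a median of -0.24. Of the circadian list, 1 fell without day 28 replicate 5 or day 7 replicate 3 or 5. Bhlhe41, a repressor of the clock, averaged 63.2 ± 5.86 CPM at day 28 and 34.2 ± 3.3 CPM at day 7 (0.89 ± 0.12). The time of day at which muscles were taken is not given in the labels. The E-box CACGTG, which clock activators bind, is in the promoters of 5 of 15 clock genes with an entry and of 8.09% of all genes with one.

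Immediate early genes fell in 4 of 11 cases and rose in 1 (median -0.17), while 43.1% of all genes tested differed in either direction. With library totals 1 rose and 5 fell, with a median of -0.71. Jun, a subunit of AP-1, lay at 66.4 to 115 CPM (median 75.8) at day 28 and 181 to 249 CPM (median 214) at day 7 (log2 fold change -1.42 ± 0.15, adjusted p = 5.1e-09), with the groups apart, and Nr4a1, an orphan nuclear receptor, was the member that rose (1.57 ± 0.29). Of 16 stress genes 7 fell and 1, Atf4 (0.44 ± 0.090), rose (median -0.18). By library totals 0 rose and 9 fell, with a median of -0.71. Hspa8, a constitutive chaperone, averaged 677 ± 44.6 CPM at day 28 and 1005 ± 214 CPM at day 7 (-0.57 ± 0.12). Of 5 cell cycle genes tested Ccna2 (-0.64 ± 0.14) and Ccnd1 (-0.89 ± 0.33) fell and Mcm2 (0.48 ± 0.12) rose, with a median of -0.33. The 4 members that did not pass the filter on low counts had fewer counts at day 28, summed over the 6 libraries of a group, and were not tested. Mki67 had 25 counts at day 28 and 129 at day 7, Top2a had 11 at day 28 and 94 at day 7, Ccnb1 had 0 at day 28 and 26 at day 7, and Cdk1 had 2 at day 28 and 26 at day 7. Under library totals 0 rose and 4 fell, with a median of -0.85 among the tested members. Ccnd1 was not called without day 28 replicate 3, 4 or 6 or day 7 replicate 3 (adjusted p = 0.054 to 0.45). Of the cell cycle list, 1 fell without day 28 replicate 3, 4 or 6 or day 7 replicate 3. Of 11 cholesterol synthesis genes 3 fell and Lss rose (0.53 ± 0.18), with a median of -0.11. On library totals 0 rose and 10 fell, with a median of -0.61, while Lss was not called without day 7 replicate 5 (adjusted p = 0.051). Srebf2, their transcription factor, averaged 19.1 ± 1.22 CPM at day 28 and 36.2 ± 5.7 CPM at day 7 (-0.92 ± 0.10).

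Connexin, pannexin and purinergic receptor genes, the channels boldine is known to act on and the receptors of the ATP they release, rose in 5 of 11 cases and fell in 2 (median 0.44). With library totals 1 rose and 4 fell, with a median of -0.058. Of the channel and receptor list, 3 rose without day 28 replicate 6 or day 7 replicate 2, 3 or 5. Panx1, the pannexin of skeletal muscle, lay at 2.53 to 6.7 CPM (median 4.03) at day 28 and 13.8 to 36 CPM (median 31.7) at day 7 (log2 fold change -2.76 ± 0.30, adjusted p = 7.5e-09). All day 28 muscles were below all day 7 muscles, and the sham means were 9.14 CPM at day 28 and 8.91 CPM at day 7. P2rx5, an ATP-gated channel, averaged 7.31 ± 1.88 CPM at day 28 and 15.4 ± 3.21 CPM at day 7 (-1.08 ± 0.22). P2ry2, a nucleotide receptor coupled to G proteins, averaged 34.8 ± 4.49 CPM at day 28 and 21 ± 3.42 CPM at day 7 (0.73 ± 0.12), and P2ry1 changed by 1.07 ± 0.22. Gja1, connexin 43, had 9.36 ± 2.52 CPM at day 28 and 6.61 ± 1.45 CPM at day 7 (0.51 ± 0.17), and its call was lost with library totals (adjusted p = 0.97), and it was not called without day 28 replicate 5 (adjusted p = 0.067). Transcript levels do not measure whether a channel is open or blocked.

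Genes of connective tissue were modestly higher relative to the bulk of genes, and this depended on the scaling. Of 20 interstitial matrix genes 8 rose and 2 fell (median 0.4), while 43.1% of all genes tested differed in either direction. With library totals 1 rose and 5 fell, with a median of -0.1. Of the interstitial matrix list, 5 rose without day 28 replicate 2 or 6 or day 7 replicate 2, and 1 fell without day 7 replicate 3. Mmp2, a gelatinase, averaged 32.2 ± 5.53 CPM at day 28 and 17.4 ± 4.2 CPM at day 7 (0.89 ± 0.15). Timp1, an inhibitor of such proteases, was at 0 to 0.377 CPM at day 28 and 0.494 to 3.66 CPM at day 7 and fell (adjusted p = 6.5e-05), near the level of 3 counts in a library at day 28. Thbs1, thrombospondin 1, fell (-1.25 ± 0.40), and was not called without day 7 replicate 3 (adjusted p = 0.21), which had 29.7 CPM against 3.47 to 9.21 CPM in the other day 7 muscles. Of 10 basement membrane genes 8 rose and none fell (median 0.44). By library totals 2 rose and 1 fell, with a median of -0.057. Lamb2, a laminin chain of the synapse, lay at 116 to 147 CPM (median 132) at day 28 and 57.1 to 73.9 CPM (median 70.1) at day 7 (log2 fold change 0.96 ± 0.086, adjusted p = 1.3e-10), with the groups apart. Of 10 markers of fibro-adipogenic progenitors 5 rose and Cd55 fell (-0.82 ± 0.12), with a median of 0.37. Under library totals 0 rose and 1 fell, with a median of -0.14. Of the progenitor list, 3 rose without day 28 replicate 1 or 2 or day 7 replicate 2, 5 or 6.

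Markers of other cells differed from list to list. Of 11 macrophage markers tested none rose and 2 fell, Lgals3, galectin 3, at 4.44 ± 1.03 CPM at day 28 and 22.9 ± 12.2 CPM at day 7 (-2.36 ± 0.39), and Cd68 at 1.6 ± 0.703 CPM at day 28 and 4.76 ± 1.21 CPM at day 7 (-1.56 ± 0.38). The summed level of the list was 50.4 to 116 CPM at day 28 and 83.5 to 123 CPM at day 7, with overlapping groups. On library totals 0 rose and 10 fell, with a median of -0.85. Of the macrophage list, 5 fell without day 28 replicate 5. None of the 8 lymphocyte markers passed the filter on low counts, with a summed level of 0.472 to 1.68 CPM at day 28 and 0 to 0.848 CPM at day 7. Of 2 neutrophil genes tested S100a9 was called, from day 28 replicate 5 at 9.95 CPM against 0 to 0.377 CPM in the other day 28 muscles (median of both genes 2.44). It was not called without day 28 replicate 5 (adjusted p = 0.79), and with library totals it was the 1 call. Endothelial markers rose in 5 of 9 cases (median 0.38), Flt1 by 0.67 ± 0.12, and Cldn5 fell (-0.56 ± 0.21). With library totals 0 rose and 2 fell, with a median of -0.11. Cldn5 was not called without day 28 replicate 1 or 4 or day 7 replicate 1 or 2 (adjusted p = 0.053 to 0.074). Of the endothelial list, 3 rose without day 7 replicate 3 or 5, and 0 fell without day 28 replicate 1 or 4 or day 7 replicate 1 or 2. Smooth muscle and pericyte markers rose in 6 of 8 cases (median 0.57). By library totals 0 rose and 0 fell, with a median of 0.08.

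Schwann cell markers rose in 3 of 9 cases (among them Pmp22 by 1.11 ± 0.36 and Prx by 1.32 ± 0.49) and Ngfr fell. Among all genes tested, 43.1% differed in either direction. Of the Schwann cell list, 0 rose without day 28 replicate 2 or 6, and 1 rose without day 7 replicate 2, 5 or 6, and 0 fell without day 28 replicate 2 or 3 or day 7 replicate 2 or 3. The summed Schwann cell level was 68.2 to 319 CPM at day 28 and 57.5 to 132 CPM at day 7, with overlapping groups. Under library totals 0 rose and 1 fell, with a median of 0.052. Of 7 adipocyte markers Fabp4 rose (0.34 ± 0.13), with a summed level of 95.6 to 245 CPM at day 28 and 78.6 to 119 CPM at day 7. On library totals 0 rose and 0 fell, with a median of 0.14. Of the adipocyte list, 0 rose without day 28 replicate 2 or 6 or day 7 replicate 2, 3 or 4, and 2 rose without day 28 replicate 3 or day 7 replicate 1, and 3 rose without day 7 replicate 6. Fabp4 was not called without day 28 replicate 2 or 6 or day 7 replicate 2, 3 or 4 (adjusted p = 0.055 to 0.25). None of 5 erythrocyte genes was called by edgeR, DESeq2 or voom, 0 had an unadjusted p under 0.05 by edgeR, and the median was -0.024, with a summed level of 148 to 595 CPM at day 28 and 139 to 497 CPM at day 7. Satellite cell markers rose in 1 of 6 cases and fell in 2 (median 0.13). With library totals 0 rose and 2 fell, with a median of -0.37. Cdh15, M-cadherin, lay at 14.4 to 20.9 CPM (median 19.4) at day 28 and 37.4 to 50.9 CPM (median 47.9) at day 7 (log2 fold change -1.29 ± 0.13, adjusted p = 1.9e-09), Myf5 changed by -0.65 ± 0.19 and Chodl, chondrolectin, by 0.81 ± 0.17. The part of these cells in the changes of the muscle genes was not tested.

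**Figure D4:**
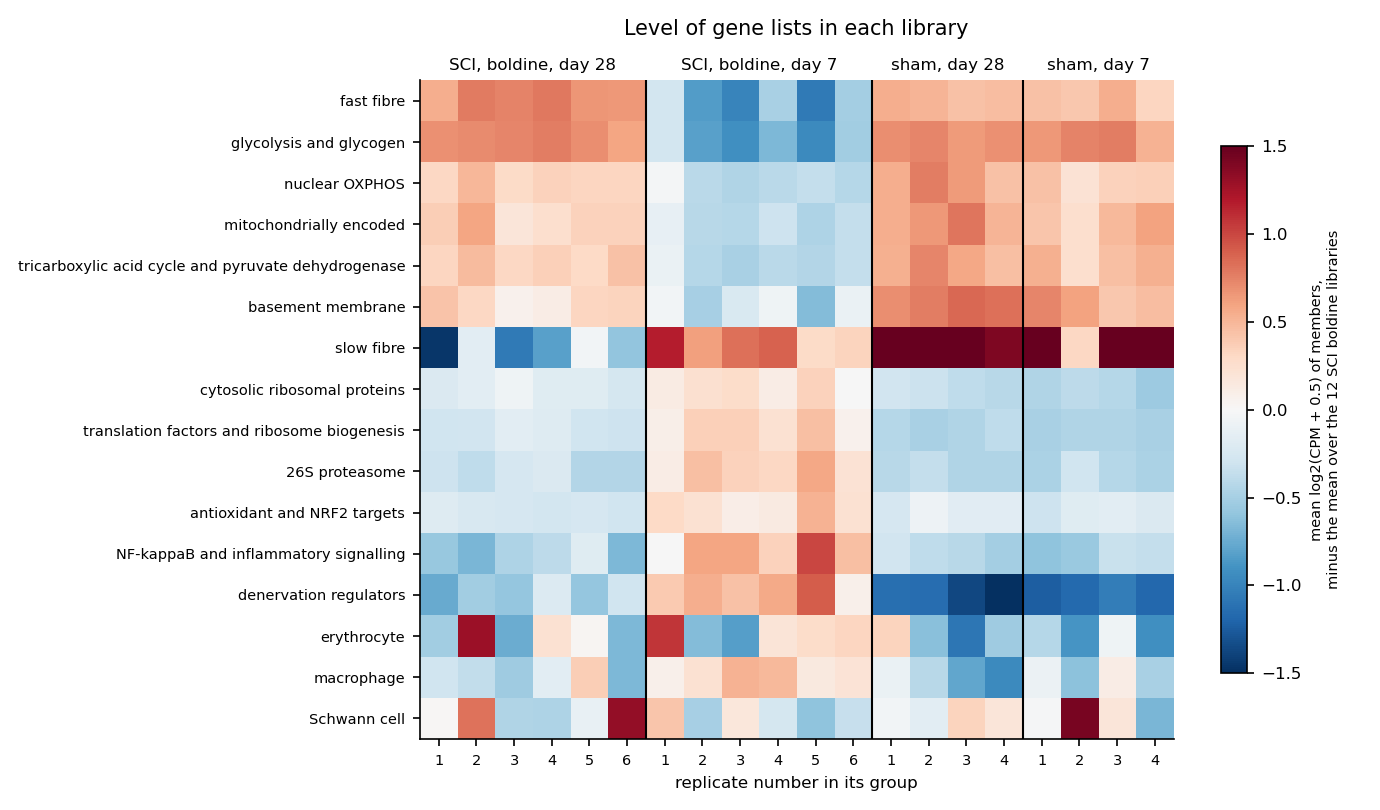
Mean log2(CPM + 0.5) of 16 gene lists in each library, minus the mean over the 12 SCI boldine libraries, for 6 SCI boldine muscles at day 28, 6 at day 7, 4 sham at day 28 and 4 at day 7, with colours that stop at -1.5 and 1.5. Fast fibre and glycolysis lists are red in all 6 day 28 muscles and blue in all 6 day 7 muscles, palest in day 7 replicate 1, and Schwann cell and erythrocyte lists vary within groups.

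Set against the vehicle-treated injured muscles of the same days, the change between days differed in 1 of 14955 genes (0.00669%), with 1453 genes (9.72%) at an unadjusted p under 0.05. That gene was Tfdp2, which encodes DP2, a partner of E2F factors. Tfdp2 lay at 76.4 to 101 CPM (median 91.3) at day 28 and 48.1 to 67.1 CPM (median 59.6) at day 7 in SCI boldine muscle, without overlap, and averaged 72.7 CPM at day 28 and 80.3 CPM at day 7 in SCI vehicle muscle. The difference of the log2 changes was 0.78 ± 0.13 (adjusted p = 0.012). No list gene differed by edgeR's test among 544, and 52 of them had an unadjusted p under 0.05. The call of Tfdp2 was lost with the library set as a term of the fit (0.67, adjusted p = 0.51). In all, 0 genes were called with that term, with the replicate number as a block, with library totals or with only the 28-day vehicle libraries of the high Hipk2 set. Those high-set libraries are only replicates 5 and 6, and no other group holds libraries of both sets. The set term and the high-set fit thus rest on few libraries, and 0 calls there do not show that the changes were alike. DESeq2 called 37 genes, 22 with a positive and 15 with a negative difference of the log2 changes (SCI boldine minus SCI vehicle), and voom 2. For Actc1 the difference from vehicle was -0.41 ± 0.59 (adjusted p = 0.88) and for Panx1 0.38 ± 0.43 (adjusted p = 0.84), and a p above the threshold does not show that the changes were alike.

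Set against sham muscles, the change between days differed in 4242 genes (28.4%), 2129 with a positive and 2113 with a negative difference of the log2 changes (SCI boldine minus sham), and 5840 (39.1%) had an unadjusted p under 0.05. Of the 544 list genes tested 286 differed. Sham mice received vehicle, so SCI boldine and sham muscles differ in both injury and drug. The difference of the log2 changes was 6.79 ± 0.66 (adjusted p = 1.2e-08) for Actc1 and 4.07 ± 0.51 (adjusted p = 7.3e-07) for Dhrs7c. For Ces2c it was -3.72 ± 1.2 (adjusted p = 0.016). These genes kept a call when the library set was a term of the fit. In sham muscles of both days, however, Ces2c lay at or near the level of 3 counts in a library. Its change in sham is therefore poorly measured, and its difference rests mainly on the fall in SCI boldine muscle. For Myh7 the difference of the log2 changes was -4.7 ± 0.82 (adjusted p = 6e-05) and for Mhrt -5.18 ± 0.80 (adjusted p = 1.3e-05). Neither was called with the library-set term (adjusted p = 0.17 for Myh7 and 0.36 for Mhrt). Lars2 and Rn7sk also had large differences, 3.72 ± 1.1 (adjusted p = 0.013) and 4.08 ± 1.4 (adjusted p = 0.032), with overlapping groups at day 28 and day 7, and were not called with that term (adjusted p = 0.89 for Lars2 and 0.95 for Rn7sk). With the library set in the fit 1661 genes differed in all. All sham libraries at day 28 are in the low set and none at day 7, so the set and the time cannot be told apart in sham muscle. The term was therefore estimated from SCI vehicle muscle at day 28, the only group with libraries of both sets. A call lost with it does not show that there was no difference.

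**Figure D5:**
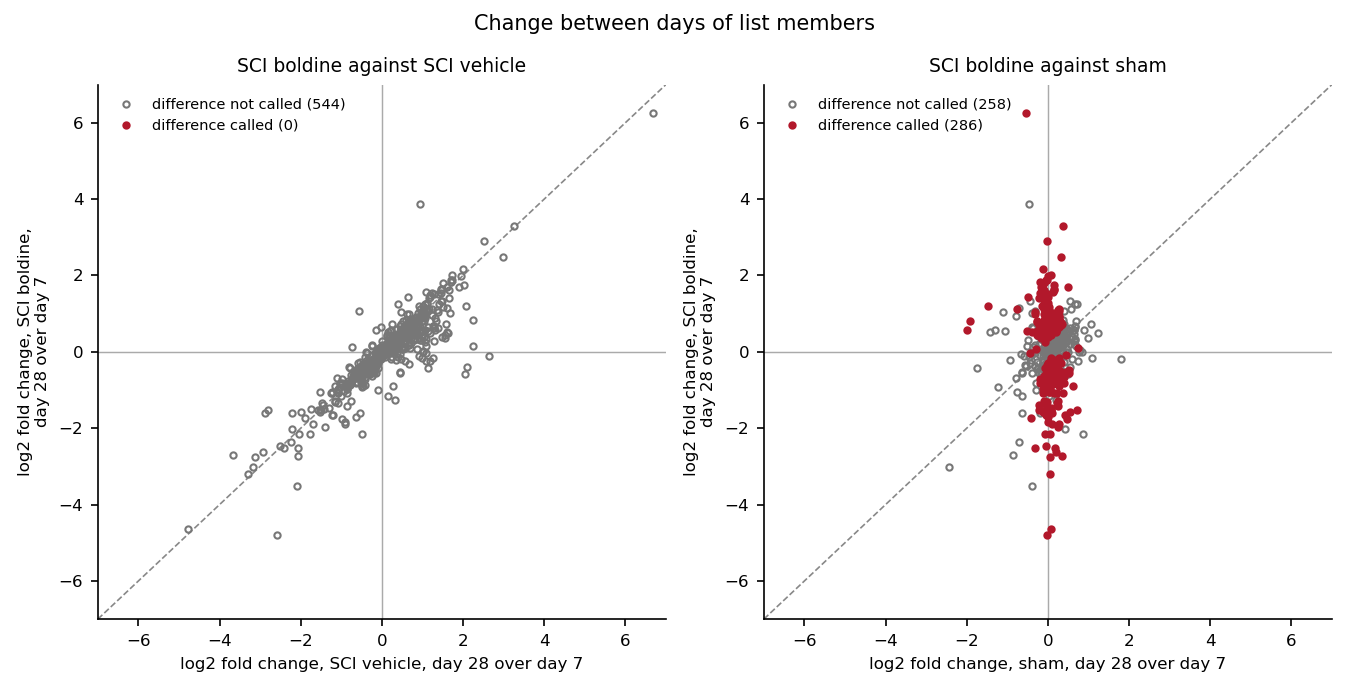
Log2 fold change of day 28 over day 7 in SCI boldine muscle (vertical) against SCI vehicle muscle (left) and sham muscle (right), 1 point for each of 544 list genes. Red filled points mark genes whose change differed, 0 on the left and 286 on the right, and the dashed line marks equal change.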

How the data were processed

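Bulk RNA was sequenced from NEBNext Ultra libraries, for which the labels' protocols state no strand marking, and the submitters' processing notes name FastQC, Trim Galore, cutadapt, STAR and the mm10 build. For the counting tool, its strand setting, the annotation and all versions the entry is "not given in the sources used here". Raw counts per gene ID are what the authors deposited. Of 55487 IDs, 55227 were matched to GENCODE symbols, 260 were not (0.0189% of counts), and 116 that share a symbol were set aside.

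Counts of all 32 libraries were fitted with edgeR 4.0.16 (R 4.3.3) as 6 group means, with TMM scaling, filterByExpr (minimum count 10, minimum total 15) and quasi-likelihood tests, adjusted over 14955 genes at 0.05. Each SE was obtained from the log2 fold change and the test's F value, as their ratio with F under the root. Differences of day changes were tested as interactions. A ± beside a mean CPM is the SD between the muscles of a group, and each SE also holds the spread between muscles. The floor of 3 counts covers counting error only. DESeq2 1.42.0, limma 3.58.1 (voom), other scalings and filters, a replicate block and left-out libraries were alternatives, and the procedure was tested on simulated data. The labels name separate samples without litters or cages, and p-values measure only the spread between these samples. The labels place 1 day 28 library, whose column carries another group's letter, in its group here.

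Named genes were the 12 largest rises and 12 largest falls with at least 5 CPM and no overlap, up to 3 members of each list with the smallest p, and the largest differences from the other groups. Some genes that the rule names are not reported here. Further genes were chosen after their values were seen. Groups, lists and members were chosen with earlier results of these data known.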

Additional observations from a re-analysis of the deposited data

Results flagged for a closer look

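The 6 CPM values of each named gene were examined in each group, 348 groups in all, and in 35 of them a library stood apart from the others by Dixon's test, which chance alone does in about 1 in 20 groups. The range of the other 5 libraries is given in parentheses. Day 28 replicate 1 stood apart from the rest of its group in Ppargc1a at 37.4 CPM (33 to 34.4 CPM). Day 28 replicate 2 was the far library in Fabp4 at 175 CPM (87.5 to 111 CPM), Idh3a at 602 CPM (537 to 556 CPM), Lss at 4.63 CPM (6.57 to 7.25 CPM), Myl3 at 96.3 CPM (35.4 to 54.4 CPM) and Ncam1 at 7.47 CPM (11.2 to 12.6 CPM). Day 28 replicate 4 differed most from its group in Ankrd1 at 73 CPM (13.4 to 30.9 CPM), Eif4e at 90.7 CPM (77.9 to 81.5 CPM), Kcnc1 at 93.4 CPM (65.3 to 75.7 CPM), Lars2 at 3130 CPM (136 to 985 CPM), Musk at 25.8 CPM (37 to 39.8 CPM) and Srxn1 at 25.1 CPM (15.9 to 17.9 CPM). Day 28 replicate 5 stood apart from the rest of its group in Mhrt at 3.49 CPM (0.186 to 1.05 CPM), S100a9 at 9.95 CPM (0 to 0.377 CPM), Thbs1 at 8.62 CPM (2.79 to 3.39 CPM) and Tnnc1 at 6.87 CPM (1.09 to 2.73 CPM). Day 7 replicate 1 was the far library in Ache at 30.6 CPM (14.5 to 20.4 CPM), Ckmt2 at 152 CPM (66.9 to 87.1 CPM), Cox7a1 at 65.8 CPM (31.5 to 39.9 CPM), Dhrs7c at 29.2 CPM (8.32 to 14.8 CPM), Fbxo32 at 1090 CPM (1420 to 1590 CPM), Hdac9 at 3.25 CPM (1.15 to 1.31 CPM), Idh3a at 262 CPM (157 to 194 CPM), Mettl21c at 21.9 CPM (5.01 to 11.2 CPM), Prx at 15 CPM (3.09 to 5.85 CPM), Sdha at 541 CPM (421 to 452 CPM) and mt-Nd1 at 5940 CPM (4520 to 4870 CPM). Day 7 replicate 3 differed most from its group in Ccnd1 at 16.8 CPM (2.09 to 4.29 CPM), Krt8 at 30.5 CPM (4.49 to 12.6 CPM), Lss at 7.77 CPM (2.85 to 4.49 CPM) and Thbs1 at 29.7 CPM (3.47 to 9.21 CPM). Day 7 replicate 5 stood apart from the rest of its group in Gadd45a at 522 CPM (290 to 367 CPM), Nfe2l2 at 65.5 CPM (35.6 to 44.5 CPM) and Srxn1 at 76.7 CPM (33.9 to 46.6 CPM). Day 7 replicate 6 was the far library in B2m at 57.4 CPM (49.8 to 51.6 CPM).

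The change between days differed between SCI boldine and SCI vehicle muscle for Tfdp2 by 0.78 on the log2 scale, and between SCI boldine and sham muscle for 4242 genes, both by a test of the difference itself. The difference from vehicle was not called with the library set in the fit (adjusted p = 0.51 for Tfdp2), and 0 genes were called with the replicate block or with library totals.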

How the results depend on the processing

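The count of genes that differed between day 28 and day 7 was 6440 of 14955 tested. Over the same genes it was 6456 with size factors of the RLE method, 6528 with DESeq2 and 6598 with limma voom. Other settings changed the number of genes tested, so the shares called are not alike. The count was 6053 of 29876 without a filter on low counts and 5434 of 9722 with a mean of at least 5 CPM. With the 12 SCI boldine libraries only it was 6198 of 13641. Library totals gave 9766, 842 higher and 8924 lower. Leaving out 1 of the 12 libraries gave 5807 to 6547. The difference from SCI vehicle, 1 gene, became 0 with library totals, 37 with DESeq2, 2 with voom and 0 with the library-set term. It was also 0 with only the 28-day vehicle libraries of the high Hipk2 set (n = 2). The difference from sham, 4242 genes, became 7505 with library totals (637 positive and 6868 negative differences of the log2 changes), 1661 with the library-set term, and 3795 to 4040 when 1 sham library was left out.

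Replicate numbers did not pair the samples: deviations of same-numbered muscles correlated at 0.021, -0.122, -0.023, -0.008, -0.054 and -0.003. With the replicate number as a block 5795 genes differed between days, 3995 differed from sham, and 0 from vehicle.

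Over 174 named genes and their alternatives, 3809 values were compared, of which 3691 kept direction and call, 87 lost the call, 17 gained it and 14 changed sign. With library totals the sign turned for Atf4 (-0.073), Fabp4 (-0.16), Foxo4 (-0.115), Hipk2 (-0.393), Mcm2 (-0.026), Optn (-0.052) and Rps2 (-0.296), where the scaling itself lowers every gene. Leaving out single libraries gave -0.321 to 0.129 for Sln and -0.109 to 0.023 for Txnrd1, neither called. Depth limits genes near 3 counts, 0.279 to 0.316 CPM in day 28 libraries.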
